A study of Mus musculus with 2 samples.

Results

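The 42 genes described here make, fold, export and clear the proteins that pass through the endoplasmic reticulum (ER). They were taken by symbol from a fixed list, and each of the 42 symbols was found among the 54838 gene identifiers of the count tables. The list was sorted by protein role into 5 branches: 11 chaperones and their partners, 9 disulfide and proline isomerases and related oxidoreductases, 9 subunits of the translocon and signal peptidase, 7 genes of ER-associated degradation, and 6 sensors and transcription factors of the ER stress response. The label of the list held for these symbols, with Mzb1 known mainly from B-lineage cells and Xbp1, Atf4, Ddit3 and Trib3 acting outside the ER itself.

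The study used sorted intestinal immune cells of mice that all received X-rays at a dose of 10 Gy. The KO library came from mice lacking DPF2, a subunit of a BAF chromatin remodelling complex, and the WT library from wild-type mice, with 1 library per genotype. Per the labels, live cells were sorted by GFP or tdTomato signal, but the time after irradiation, the number, age and sex of the mice, the cells in which the deletion took place and the gates that entered each library are not stated in the labels. Each value is therefore 1 library set against 1 library, with no replicate check and no test, and each interval is a 95% interval that covers counting error only.

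Secreted and membrane proteins enter the ER through the SEC61 channel, lose their signal peptide, and are folded by chaperones such as BiP and GRP94 while disulfide isomerases set their cysteine bonds. Proteins that fail to fold are passed back to the cytosol for degradation. When unfolded protein builds up, the sensors IRE1, PERK and ATF6 raise the transcription of this machinery, partly through XBP1, whose messenger RNA is spliced by IRE1. Plasma cells, which in the gut release mainly dimeric IgA, carry a large ER and need XBP1 to build it.

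Filtering left 8199 KO cells with 44354392 unique molecular identifiers (UMIs, each standing for 1 captured transcript) and 10230 WT cells with 57168037 UMIs, at median depths of 4101 UMIs in KO and 4540.5 in WT. The files shared 24 cell barcodes. Cells were clustered with none of the 42 genes among the genes used, and clusters were named by markers that include none of the 42. Each name stands for cells like that type by their leading genes. An unnamed cluster led by Defa24 and other antimicrobial peptide genes held 288 KO cells and 1 WT cell and entered no comparison. Plasma cells numbered 605 in KO (7.38% of cells) and 1310 in WT (12.8%). Their defining transcripts Jchain, Igha and Sdc1 were present in both, Sdc1 at 162 UMIs per 1000000 in KO and 149 in WT. Prdm1 was also close, at 199 in KO and 206 in WT. Other plasma cell markers differed, with Igha at 181269 in KO and 130151 in WT and Tnfrsf17 at 50.2 in KO and 73.4 in WT. Ighg2b was at 3590 in KO and 634 in WT, so the plasma cells of the libraries were not alike in all markers. The targeted gene Dpf2 stood at 11.3 UMIs per 1000000 in KO plasma cells and 16.8 in WT plasma cells (0.671-fold, 0.487 to 0.911), and at 17.4 in KO T cells and 39.997 in WT T cells (0.436-fold, 0.341 to 0.551). The labels do not say which part of Dpf2 was deleted, and a transcript end outside that part would not check the deletion.

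In plasma cells, chaperones, disulfide isomerases and translocon genes were lower in the KO library, while none of the stress sensors and factors passed the 1.5-fold threshold in either direction. Levels here are a gene's UMIs added up across a class and divided by all UMIs of the class, times 1000000. A smaller share for these genes and a larger share for other transcripts cannot be told apart on this scale. All 42 genes together held 14502 UMIs per 1000000 in KO plasma cells and 24194 in WT plasma cells (0.599-fold, 0.594 to 0.604). Per plasma cell, they made up a median of 1.32% of UMIs in KO and 2.01% in WT, with 25th to 75th percentiles of 1.10% to 1.58% in KO and 1.52% to 2.93% in WT. Log2 ratios divide the KO level by the WT level once 10 per 1000000 has been added to both, which draws low genes towards 0. A gene passed, and was given a ratio, if the class held at least 100 of its UMIs in all and at least 5% of its cells in either library had one. In plasma cells 41 of the 42 genes passed, all but Trib3, with 8 UMIs in KO and 20 in WT.

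Of these 41 genes, 38 had a log2 ratio below 0, and 23 were at least 1.5-fold lower in KO plasma cells, where 7.67% of all 7950 genes that passed were that much lower. None of the 41 was 1.5-fold higher, where 2.09% of all genes that passed were. At 2-fold, 15 of the 41 were lower, against 0.994% of all genes, and none was higher, against 0.516%. The 41 had a median log2 ratio of -0.64 (-0.77 to -0.56), where an interval of a median runs from the median of the genes' lower bounds to the median of their upper bounds. All genes that passed had a median of -0.16, with 5th and 95th percentiles of -0.67 and 0.38. Their 75th percentile was 0.025, so more of them also lay below 0 than above it. By branch, the medians were -1.29 (-1.37 to -1.14) for chaperones, -1.13 (-1.21 to -1.05) for disulfide and proline isomerases, -0.85 (-0.91 to -0.76) for translocon genes, -0.51 (-0.56 to -0.29) for degradation genes and -0.072 (-0.26 to 0.024) for stress sensors and factors. The 23 lower genes were 9 of 11 chaperones, 6 of 9 isomerases, 8 of 9 translocon genes, 0 of 7 degradation genes and 0 of 5 stress genes.

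**Figure D1:**
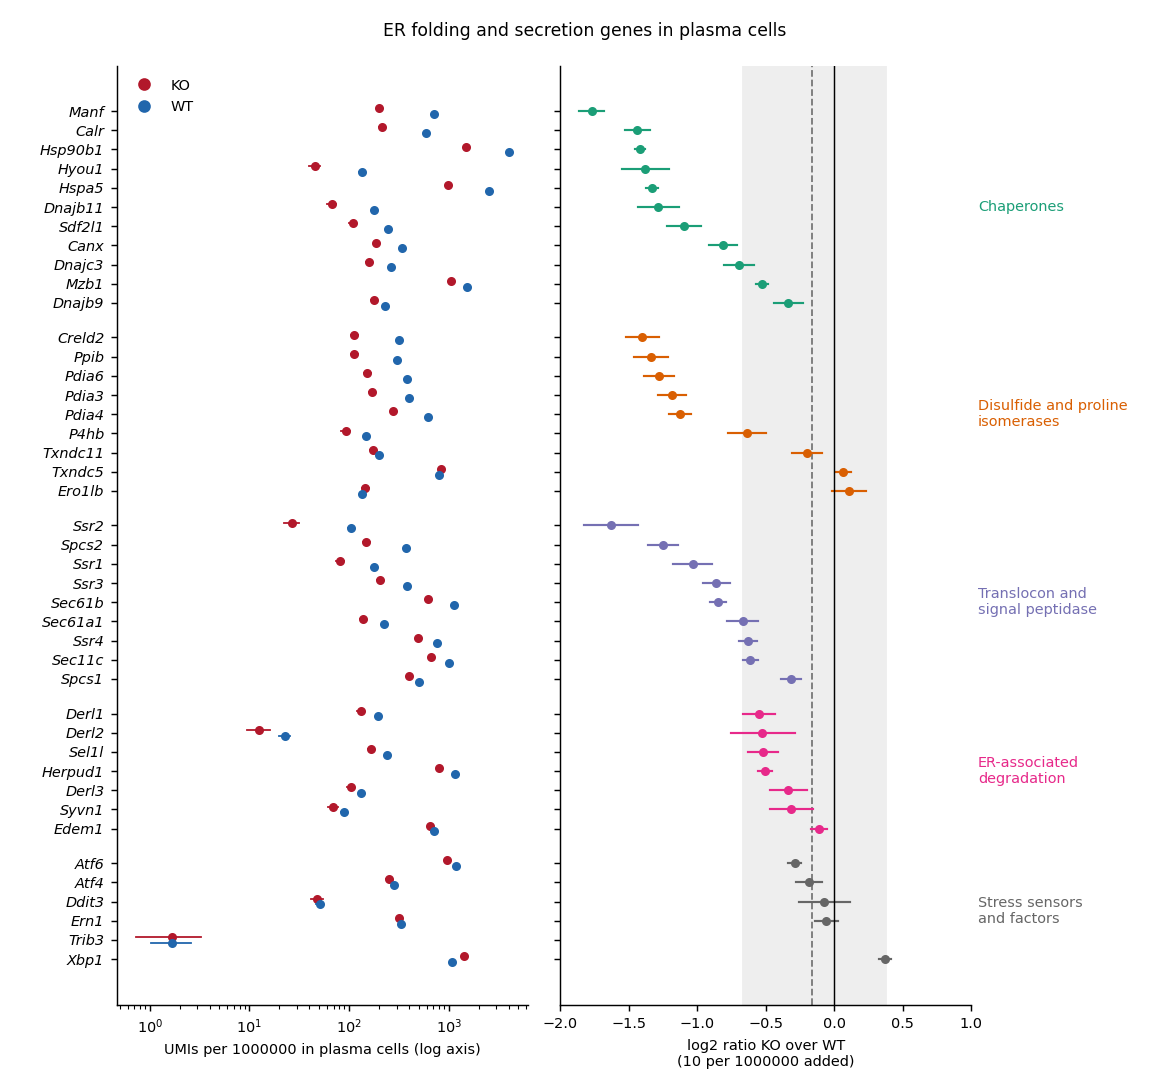
The plot of gene levels in plasma cells gives UMIs per 1000000 in KO and WT on a log axis at left, and the log2 ratio of KO over WT at right, with 1 row per gene, grouped by branch; bars are 95% counting intervals. The grey band runs from the 5th to the 95th percentile of all genes that passed (-0.67 to 0.38) and the dashed line is their median (-0.16); most chaperones lie left of the band and Xbp1 lies at 0.37.

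Several promoters of these genes carry a known response element, and those printed here are shown because genes with the same element had unlike ratios in plasma cells. The ER stress element bound by ATF6 with NF-Y is CCAAT followed by CCACG after a gap of 9 bases. RefSeq promoter windows of 250 bases before to 50 bases after the gene start (build GRCm38.p6) were at hand for 34 of the 42 genes, and both strands were searched. The element stood in 10 of these 34 genes and in 37 of all 27025 genes with a window (0.137%), or 39 of all 32851 windows (0.119%). Stretches of 5 chaperone and disulfide branch genes and of 2 degradation genes follow, each 5′ to 3′ on the gene's own strand. Capitals mark both conserved parts of the element, which read CGTGG and then ATTGG where the element lies on the other strand.
Hspa5 (chr2:34772010-34772058, plus strand, element 65 to 47 bases before the start): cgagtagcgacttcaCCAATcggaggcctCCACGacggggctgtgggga
Calr (chr8:84847060-84847108, minus strand, 162 to 144 bases before): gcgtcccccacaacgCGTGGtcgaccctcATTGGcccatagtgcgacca
Creld2 (chr15:88819505-88819553, plus strand, 126 to 108 bases before): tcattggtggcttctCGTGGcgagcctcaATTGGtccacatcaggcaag
Pdia6 (chr12:17266476-17266524, plus strand, 98 to 80 bases before): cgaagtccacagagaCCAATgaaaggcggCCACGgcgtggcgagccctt
Ero1lb (chr13:12565667-12565715, plus strand, 201 to 183 bases before): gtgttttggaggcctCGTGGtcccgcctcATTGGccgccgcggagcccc
Syvn1 (chr19:6046517-6046565, plus strand, 44 to 26 bases before): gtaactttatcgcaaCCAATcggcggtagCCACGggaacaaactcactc
Derl3 (chr10:75893227-75893275, plus strand, 156 to 138 bases before): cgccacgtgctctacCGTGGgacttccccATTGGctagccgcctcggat

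The 10 genes with the element had log2 ratios in plasma cells from -1.44 (Calr) to 0.11 (Ero1lb), a median of -1.05 and 7 genes at least 1.5-fold lower. Besides those printed they were Hsp90b1, which held 2 copies, Dnajc3 and Canx. The 23 genes that passed, had a window and lacked the element ranged from -1.34 (Ppib) to 0.37 (Xbp1), with a median of -0.53 and 11 genes at least 1.5-fold lower. The 8 genes that passed without a window had a median of -0.64, with 5 at least 1.5-fold lower and Manf lowest at -1.77. Of all genes that passed, 7.67% were that much lower. All 10 genes with the element were of the chaperone, disulfide or degradation branch, so these groups also differed in branch. The part of the element was not tested. Among the 10, Hspa5, Calr, Creld2 and Pdia6 stood at -1.28 or below, while Syvn1 and Derl3 stood at -0.31 and -0.34. The shorter UPR element TGACGTGG, read by XBP1 and ATF6, was found in Txndc11 and Txndc5 and in 0.676% of all windows. Txndc11 had a log2 ratio of -0.20 and Txndc5 of 0.066. ER stress element II, ATTGG followed by CCACG after a gap of 1 base, was found in Herpud1 and Dnajb11 and in 0.0365% of all windows. Herpud1 also held TTGCATCA, a C/EBP-ATF element found in 0.895% of windows. A match of letters is a description and shows no binding.

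Among the chaperones, Hspa5 encodes BiP, the HSP70 of the ER. It had 995 UMIs per 1000000 in KO plasma cells and 2514 in WT plasma cells (0.396-fold, 0.384 to 0.408). Hsp90b1, which encodes the ER HSP90 GRP94, had 1487 in KO and 3998 in WT (0.372-fold, 0.363 to 0.381). In both, the KO library was the lower, and Hsp90b1 had the largest difference in level among the 42 genes. Manf encodes a small ER-resident and secreted protein that binds BiP. It had 202 UMIs per 1000000 in KO plasma cells and 714 in WT (0.283-fold, 0.264 to 0.302), the lowest log2 ratio of the 41 genes at -1.77.

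Calr encodes calreticulin, a lectin chaperone that holds freshly glycosylated proteins, and had 213 UMIs per 1000000 in KO and 594 in WT plasma cells (0.358-fold, 0.335 to 0.383). Canx, its membrane-bound relative calnexin, had 188 in KO and 338 in WT (0.557-fold, 0.517 to 0.598). Of this pair, the soluble chaperone thus lay further below WT than the membrane-bound one, with intervals that did not overlap. Hyou1, an ER nucleotide exchange factor for BiP, had 45.2 in KO and 134 in WT (0.338-fold, 0.292 to 0.390).

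The ER J-domain proteins, which bring clients to BiP and start its ATP cycle, had unlike ratios. Dnajb11 (ERdj3) had 67.1 UMIs per 1000000 in KO plasma cells and 178 in WT (0.377-fold, 0.334 to 0.424), and Sdf2l1, which pairs with it, had 109 in KO and 245 in WT (0.445-fold, 0.405 to 0.489). Dnajc3 (p58IPK) had 159 in KO and 265 in WT (0.602-fold, 0.556 to 0.652). Dnajb9 (ERdj4), a target of spliced XBP1 that also holds IRE1 in check, had 179 in KO and 228 in WT (0.783-fold, 0.724 to 0.846) and was the chaperone nearest to its WT level. Mzb1, a B-lineage partner of GRP94 that aids antibody assembly, had 1057 in KO and 1527 in WT (0.693-fold, 0.671 to 0.715). Dnajb9 and Mzb1 were the 2 chaperones that did not reach the 1.5-fold threshold.

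In the disulfide branch, 6 genes were at least 1.5-fold lower in KO plasma cells and 3 were not. Pdia6 had 153 UMIs per 1000000 in KO plasma cells and 386 in WT (0.397-fold, 0.366 to 0.429), Pdia3 (ERp57, the isomerase that works with calreticulin and calnexin) 171 in KO and 399.7 in WT (0.427-fold, 0.396 to 0.460), and Pdia4 278 in KO and 618 in WT (0.449-fold, 0.423 to 0.476). Ppib, the ER cyclophilin that turns proline bonds, had 113 in KO and 301 in WT (0.375-fold, 0.342 to 0.411). Creld2, a calcium-binding ER protein with thiol activity, had 114 in KO and 317 in WT (0.358-fold, 0.327 to 0.392). P4hb, the founding protein disulfide isomerase, had 92.4 in KO and 149 in WT (0.619-fold, 0.557 to 0.688).

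The other 3 genes of the branch stayed within 1.5-fold. Txndc5, an isomerase that plasma cells carry in quantity, had 846 UMIs per 1000000 in KO plasma cells and 807 in WT (1.048-fold, 1.0097 to 1.09). Ero1lb, the oxidase that recharges the isomerases, had 146 in KO and 135 in WT (1.08-fold, 0.990 to 1.18), and Txndc11, a thioredoxin-like partner of degradation, had 172 in KO and 199 in WT (0.865-fold, 0.798 to 0.936). The log2 ratios of all 3 changed sign under other settings, Txndc5 lying between -0.18 and 0.23, Ero1lb between -0.084 and 0.49 and Txndc11 between -0.26 and 0.012.

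All 9 translocon and signal peptidase genes were lower in KO plasma cells. Ssr2, the beta subunit of the translocon-associated protein complex, had 26.8 UMIs per 1000000 in KO and 104 in WT (0.258-fold, 0.213 to 0.309), the lowest fold of the 41 genes before the added 10 per 1000000. The other subunits of that complex were Ssr1, with 81.1 in KO and 177 in WT (0.460-fold, 0.411 to 0.512), Ssr3, with 204 in KO and 378 in WT (0.539-fold, 0.502 to 0.578), and Ssr4, with 494 in KO and 769 in WT (0.643-fold, 0.614 to 0.672). The 4 subunits of 1 complex were all lower, by unequal amounts.

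The channel itself had Sec61a1, the pore, at 139 UMIs per 1000000 in KO plasma cells and 226 in WT (0.613-fold, 0.562 to 0.667), and Sec61b at 622 in KO and 1128 in WT (0.551-fold, 0.530 to 0.574). Of the signal peptidase, Spcs2 had 150 in KO and 369.7 in WT (0.405-fold, 0.374 to 0.438). The catalytic subunit gene Sec11c had 659 in KO and 1013 in WT (0.650-fold, 0.625 to 0.676), and Spcs1 had 401 in KO and 502 in WT (0.799-fold, 0.759 to 0.841). Spcs1 was the 1 gene of the branch within 1.5-fold. Its log2 ratio of -0.316 lay between the 25th and 75th percentiles of all genes that passed (-0.342 and 0.025).

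Genes of ER-associated degradation were lower by smaller amounts. Sel1l, the scaffold of the main ligase complex, had 166 UMIs per 1000000 in KO plasma cells and 242 in WT (0.684-fold, 0.631 to 0.740), and Syvn1, the ligase HRD1 itself, had 69.2 in KO and 88.5 in WT (0.782-fold, 0.689 to 0.886). Herpud1, which organises that complex, had 804 in KO and 1147 in WT (0.702-fold, 0.677 to 0.727). The derlins, which pull proteins out of the ER membrane, were lower in all 3 cases, Derl1 at 132 in KO and 197 in WT, Derl2 at 12.5 in KO and 22.5 in WT, and Derl3 at 104 in KO and 133 in WT. Derl2 was 0.557-fold (0.413 to 0.739) before the added 10 per 1000000, which kept it within the threshold. Edem1, a lectin that marks glycoproteins for degradation and a known XBP1 target, had 653 in KO and 705 in WT (0.926-fold, 0.889 to 0.965). The branch summed to 1941 in KO and 2536 in WT plasma cells (0.765-fold, 0.748 to 0.783). On the log2 scale, all genes that passed had 25th and 75th percentiles of -0.342 and 0.025. Edem1 (-0.109), Syvn1 (-0.314) and Derl3 (-0.336) lay between these.

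The stress sensors and factors had a summed level of 3000.5 UMIs per 1000000 in KO plasma cells and 2948 in WT (1.02-fold, 0.998 to 1.04). Xbp1, the factor that plasma cells need for their ER, had 1416 in KO and 1094 in WT (1.29-fold, 1.26 to 1.33), within 1.5-fold. On the log2 scale it stood at 0.370, just below the 95th percentile of all genes that passed (0.375), whose median was -0.16. Its log2 ratio of 0.37 was above 0 under all 20 other settings that gave it a value, from 0.23 to 0.58. The counts do not part spliced from unspliced Xbp1 messenger RNA. Atf6, the sensor that is cut to give a transcription factor, had 969 in KO and 1187 in WT (0.817-fold, 0.790 to 0.844). Ern1, which encodes IRE1, had 316 in KO and 329 in WT (0.959-fold, 0.903 to 1.02).

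Atf4, the factor made when PERK slows translation, had 250.04 UMIs per 1000000 in KO plasma cells and 286 in WT (0.876-fold, 0.819 to 0.936). Its target Ddit3 (CHOP) had 47.7 in KO and 50.6 in WT (0.941-fold, 0.805 to 1.10). Trib3, a target of both, had 1.67 in KO and 1.68 in WT, with an interval of the fold from 0.379 to 2.36 that shows nothing at this depth. The side of 0 on which Edem1, Ern1 and Ddit3 lay changed when immunoglobulin and mitochondrial transcripts were left out of the total, while the other 38 genes kept theirs. Atf4 and Atf6 also crossed 0 in 1 setting each, with log2 ratios from -0.37 to 0.022 for Atf4 and from -0.38 to 0.049 for Atf6.

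Plasma cells of the libraries also differed in other ways, several of which were seen in other classes too. Immunoglobulin genes made up 40.03% of plasma cell UMIs in KO and 33.7% in WT, and mitochondrial transcripts 2.001% in KO and 1.58% in WT. With immunoglobulin genes left out of the total, the 42 genes held 24183 per 1000000 in KO and 36465 in WT, a ratio of 0.663. By branch this ratio was 0.485 for chaperones, 0.696 for isomerases, 0.658 for translocon genes, 0.847 for degradation genes and 1.13 for stress genes. Transcripts of dividing cells were fewer in KO plasma cells: the cell cycle list summed to 133 UMIs per 1000000 in KO and 449 in WT, and 11 of the 15 of its genes that passed were at least 1.5-fold lower, against 7.67% of all genes. Marker lists of other cell types also differed. The 9 B cell genes summed to 453 in KO and 243 in WT with none at 0, the 8 stromal genes to 11.7 in KO (1 at 0) and 76.1 in WT (none at 0), and the 12 epithelial genes to 152 in KO (2 at 0) and 92.5 in WT (3 at 0). Defa24 stood at 36.4 in KO and 2.52 in WT plasma cells. T cells differed in the same directions: B cell genes were at 140 in KO and 56.2 in WT, stromal genes 12.2 and 58.0, epithelial genes 131 and 13.4, and Defa24 68.7 and 2.19. The cell cycle list summed to 230 in KO and 674 in WT T cells, but to 470 in KO and 444 in WT dendritic cells. The part of these differences in the ratios of the 42 genes was not tested, apart from the subsets and scalings given here.

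A finer clustering split the plasma cells into subclusters that the libraries filled unequally. Subcluster 5 held 145 KO and 972 WT plasma cells, subcluster 10 held 451 KO and 227 WT, and subcluster 26, of dividing cells, held 9 KO and 111 WT. The 42 genes summed to 14549 UMIs per 1000000 in KO and 23129 in WT in subcluster 5 (0.629-fold, 0.620 to 0.638), to 14473 in KO and 21864 in WT in subcluster 10 (0.662-fold, 0.653 to 0.671), and to 14794 in KO and 31574 in WT in subcluster 26 (0.469-fold, 0.447 to 0.491). KO sums lay between 14473 and 14794 in the 3 subclusters, and WT sums between 21864 and 31574. Of the 23 genes at least 1.5-fold lower in all plasma cells, 19 were so in subcluster 5 and 17 in subcluster 10, and all 23 were below 0 in both. Those within 1.5-fold in both were Ssr4, Dnajc3 and Sec11c. The 23 genes were picked in all plasma cells, of which each subset here and below is a part. Counts of the 23 in subsets are therefore no independent check, and no share of all genes is given for the subsets.

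Among cells with fewer than 2 UMIs of cell cycle genes, 501 in KO and 907 in WT, the sum was 14314 in KO and 22350.0 in WT (0.640-fold, 0.634 to 0.647), and 19 of the 23 genes passed 1.5-fold. Among cells in cycle, 104 in KO (17.2%) and 403 in WT (30.8%), it was 15107 in KO and 27160 in WT (0.556-fold, 0.547 to 0.565). By heavy chain, IgA cells, 90.4% of KO and 97.3% of WT plasma cells, had 14404 in KO and 24116 in WT (0.597-fold, 0.592 to 0.602), with all 23 genes past 1.5-fold. IgG cells, 34 in KO and 12 in WT, had 16837 in KO and 33438 in WT (0.504-fold, 0.480 to 0.528). The ratio was 0.575 among cells with Xist and no Y-linked UMI and 0.613 among cells with Y-linked UMIs and no Xist.

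Ranked by immunoglobulin share, the sum of the 42 genes differed more between groups of WT plasma cells than between groups of KO plasma cells, and the branches ran in different directions. Plasma cells of each library were ranked by the share of their UMIs from immunoglobulin genes and cut into groups of like size, and levels were taken per 1000000 UMIs of other genes. The low, middle and high groups had immunoglobulin shares of 27.7%, 40.6% and 48.4% in KO and 19.3%, 36.8% and 44.9% in WT. Groups of the same name were therefore not alike in share. In KO the sum was 24360 (24049 to 24673) in the group of low share, 23728 (23419 to 24040) in the middle group and 24455 (24142 to 24771) in the high group. In WT it was 40461 (40243 to 40681), 35310 (35073 to 35547) and 31902 (31668 to 32137) in that order. Chaperones gave 9111, 7100.0 and 7286 in KO and 19358, 15181 and 12624 in WT, highest in the low group in both libraries. Isomerases gave 3471, 3322 and 3633 in KO and 5864, 4543 and 4209 in WT. Translocon genes gave 4049, 4635 and 5208 in KO, lowest in the low group, and 7737, 6596 and 6479 in WT, highest there. Degradation genes gave 3198, 3213 and 3298 in KO and 3399.7, 4239.6 and 3985 in WT. Stress genes gave 4531, 5458 and 5030 in KO and 4103, 4750 and 4604 in WT, lowest in the low group in both libraries. In the low group 17.8% of KO and 44.6% of WT cells were in cycle, in the high group 16.9% of KO and 23.9% of WT cells.

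**Figure D2:**
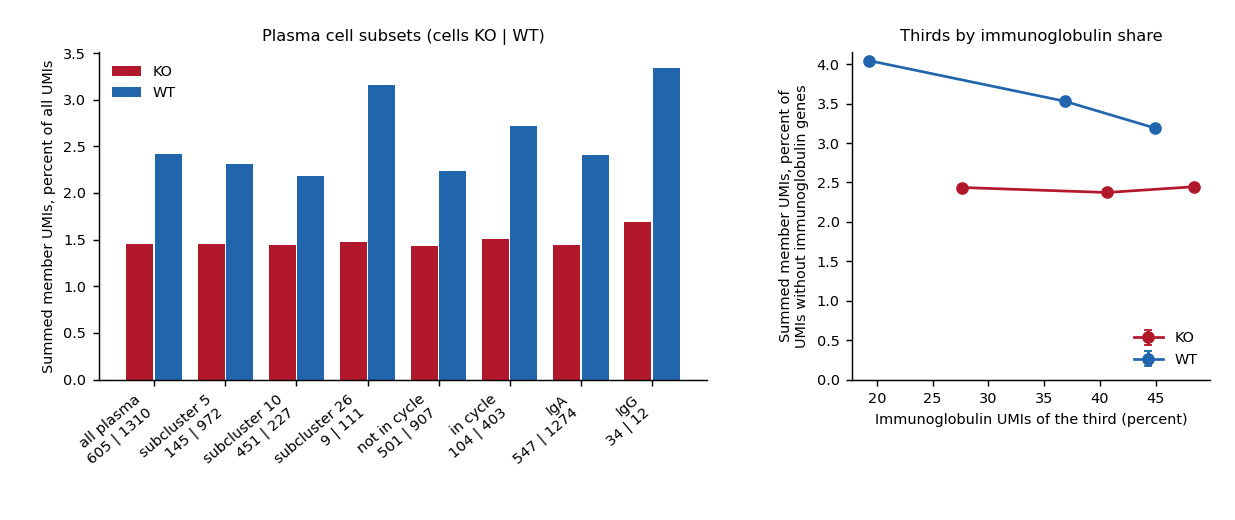
At left, bars give the summed UMIs of the 42 genes as a percent of all UMIs in subsets of plasma cells, KO left of WT, with the numbers of cells under each name. At right, the same sum as a percent of UMIs without immunoglobulin genes is plotted for groups of low, middle and high immunoglobulin share, with 95% counting intervals smaller than the points; KO lies between 2.37% and 2.45%, WT between 3.19% and 4.05%.

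The same differences showed in the share of plasma cells with a UMI after each cell was thinned to 1000 UMIs, which left out 10 KO and 16 WT cells. A Manf UMI was found in 16.5% (13.6 to 19.7) of KO and 44.5% (41.8 to 47.3) of WT plasma cells, against 59.7% of KO and 91.1% of WT cells without thinning. For Hspa5 the thinned shares were 55.1% (51.0 to 59.2) in KO and 79.4% (77.1 to 81.6) in WT, and for Creld2 9.24% (7.04 to 11.9) in KO and 23.0% (20.8 to 25.4) in WT. Xbp1 gave 70.6% (66.8 to 74.2) in KO and 61.5% (58.8 to 64.2) in WT. For Derl3, which few cells other than plasma cells hold, the thinned shares were 7.90% in KO and 12.8% in WT plasma cells, and 0.277% in KO and 0.416% in WT T cells. Median depths were 7615 UMIs in KO and 8852 in WT plasma cells, and 3935 in KO and 3942 in WT T cells.

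Across the classes, the WT library had more of these genes at their highest level in plasma cells than the KO library had. Of the 42 genes, 20 in KO and 30 in WT had their highest level in plasma cells, and 28 in KO and 34 in WT with immunoglobulin genes left out of the total. The translocon branch had 5 of 9 genes highest in KO plasma cells and 8 of 9 in WT plasma cells. These ranks included stromal and plasmacytoid dendritic cells, with 45 and 34 KO cells, too few to be compared elsewhere. Among KO cells, plasmacytoid dendritic cells led for Hyou1, Sec61a1, Derl1 and Atf6, and stromal cells for Dnajc3, Pdia6, Ppib, Ssr2 and Ssr3. Plasma cells led for all of these in WT. For Derl1 the KO levels were 133 and 132 in plasma cells. The share of all genes highest in plasma cells was not taken. By the share of all UMIs, Hspa5 in plasma cells ranked ninth of 13 classes among KO cells, where monocytes or macrophages led at 1543 UMIs per 1000000, and first among WT cells. With immunoglobulin genes left out of the total, plasma cells ranked first for Hspa5 in both libraries. They then had 1.07 times the monocyte or macrophage level in KO and 1.75 times in WT. Genes far higher in plasma cells than in the next class were Mzb1 (15.5 times the B cell level in KO, 8.76 in WT), Derl3 (11.6 times ILC2 in KO, 11.1 in WT) and Txndc5 (9.64 times stromal cells in KO, 5.19 in WT). Others led elsewhere in both libraries: Ern1 in innate lymphoid cells (3536 in KO ILC3, 2877 in WT ILC2), Atf4, Ddit3, P4hb and Dnajb9 in neutrophils, and Ero1lb in B cells (544 in KO, 526 in WT).

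**Figure D3:**
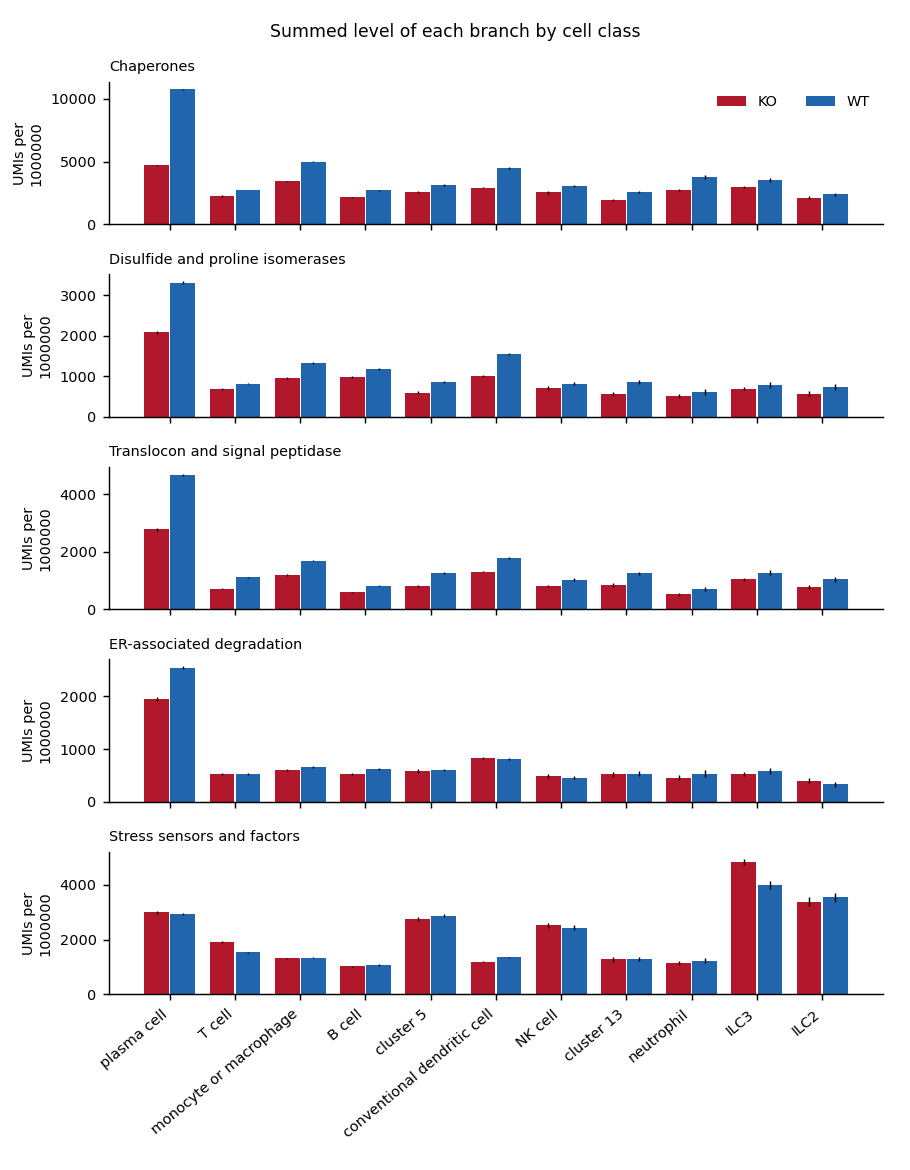
Bars give the summed UMIs per 1000000 of each branch in each class, KO left of WT, with 95% counting intervals. Chaperones reach 4701 in KO and 10733 in WT plasma cells, and the stress branch is highest in ILC3 at 4844 in KO and 3997 in WT. Of these ILC3 sums, Ern1 holds 3536 in KO and 2592 in WT.

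Outside plasma cells the median over the list was below 0 in each class compared, nearer to 0 than in plasma cells, and branches differed. The median log2 ratio of those that passed was -0.39 (-0.52 to -0.28) in conventional dendritic cells, -0.31 (-0.45 to -0.20) in monocytes or macrophages, -0.29 (-0.47 to -0.14) in B cells and -0.27 (-0.42 to -0.15) in T cells. It was -0.23 in neutrophils, -0.22 in NK cells, -0.18 in ILC3 and -0.10 in ILC2, with intervals that held 0. Medians of all genes that passed lay between -0.020 and 0.070 in these classes. Clusters 5 and 13, led by Il17a and holding Foxp3, went by number because they carried T cell genes beside leading genes of another type, and had medians of -0.29 and -0.28. By branch, translocon genes summed to 717 UMIs per 1000000 in KO and 1120.4 in WT T cells (0.640-fold, 0.616 to 0.664), and chaperones to 2902 in KO and 4496 in WT dendritic cells (0.646-fold, 0.634 to 0.657). The stress branch sum was on the other side in T cells, at 1902 in KO and 1539 in WT (1.24-fold, 1.21 to 1.27), and in ILC3, at 4844 in KO and 3997 in WT (1.21-fold, 1.16 to 1.27). In both classes the difference in Ern1 alone was larger than that of the branch sum. Ern1 held 3536 in KO and 2592 in WT ILC3, and had a log2 ratio of 0.59 in T cells. The median log2 ratio of the branch in T cells was 0.25 (0.060 to 0.34), with 4 of 5 genes above 0. All 42 genes summed to 10109.7 in KO and 10150.4 in WT ILC3 (0.996-fold, 0.968 to 1.03). These sums hold the Ern1 levels just given, which were higher in KO, whereas the median log2 ratio over the 29 genes that passed in ILC3 was -0.18. Of the genes that passed in both classes, 33 of 40 had a lower log2 ratio in plasma cells than in T cells. The ratio was lower than in B cells for 31 of 40 and than in conventional dendritic cells for 32 of 40.

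By count, 13 of 40 genes were at least 1.5-fold lower in T cells, where 5.32% of all genes were, 12 of 40 in dendritic cells (3.08%), 11 of 40 in monocytes or macrophages (2.92%), 11 of 40 in B cells (3.69%) and 12 of 40 in cluster 5 (5.55%). In the smaller classes it was 9 of 30 in cluster 13 (8.57%), 4 of 19 in neutrophils (9.42%), 3 of 32 in NK cells (4%), 2 of 29 in ILC3 (5.37%) and 1 of 20 in ILC2 (5.65%). Higher by 1.5-fold were 1 gene in T cells (Ern1, log2 ratio 0.59, where 2.99% of all genes were), 1 in NK cells (Ero1lb, 0.66, against 2.95%) and 1 in ILC3 (Xbp1, 0.66, against 4.7%). No gene of the list was 1.5-fold higher in monocytes or macrophages (4.46% of all genes), dendritic cells (4.07%), B cells (1.63%), cluster 5 (3.19%), cluster 13 (6.2%), neutrophils (13.6%) or ILC2 (8.09%). No gene passed 1.5-fold in opposite directions in any pair of these classes.

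Some genes were lower in nearly all classes where they could be measured. Spcs2 was at least 1.5-fold lower in 9 of 9 classes other than plasma cells, Manf in 8 of 9, Sec61b in 7 of 10, Hsp90b1 in 6 of 10, Pdia4 in 6 of 7, Sdf2l1 in 5 of 5 and Creld2 in 4 of 5. Manf had 121 UMIs per 1000000 in KO and 261 in WT dendritic cells, 81.1 in KO and 151 in WT T cells, and 71.6 in KO and 141 in WT B cells. Hspa5, by contrast, lay at -0.065 in T cells and -0.20 in B cells, and of 10 other classes only dendritic cells held it past 1.5-fold, at 1147 in KO and 1727 in WT. None of the degradation genes was 1.5-fold lower in any of the 10 classes, where Derl3 had too few UMIs to be given a ratio.

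**Figure D4:**
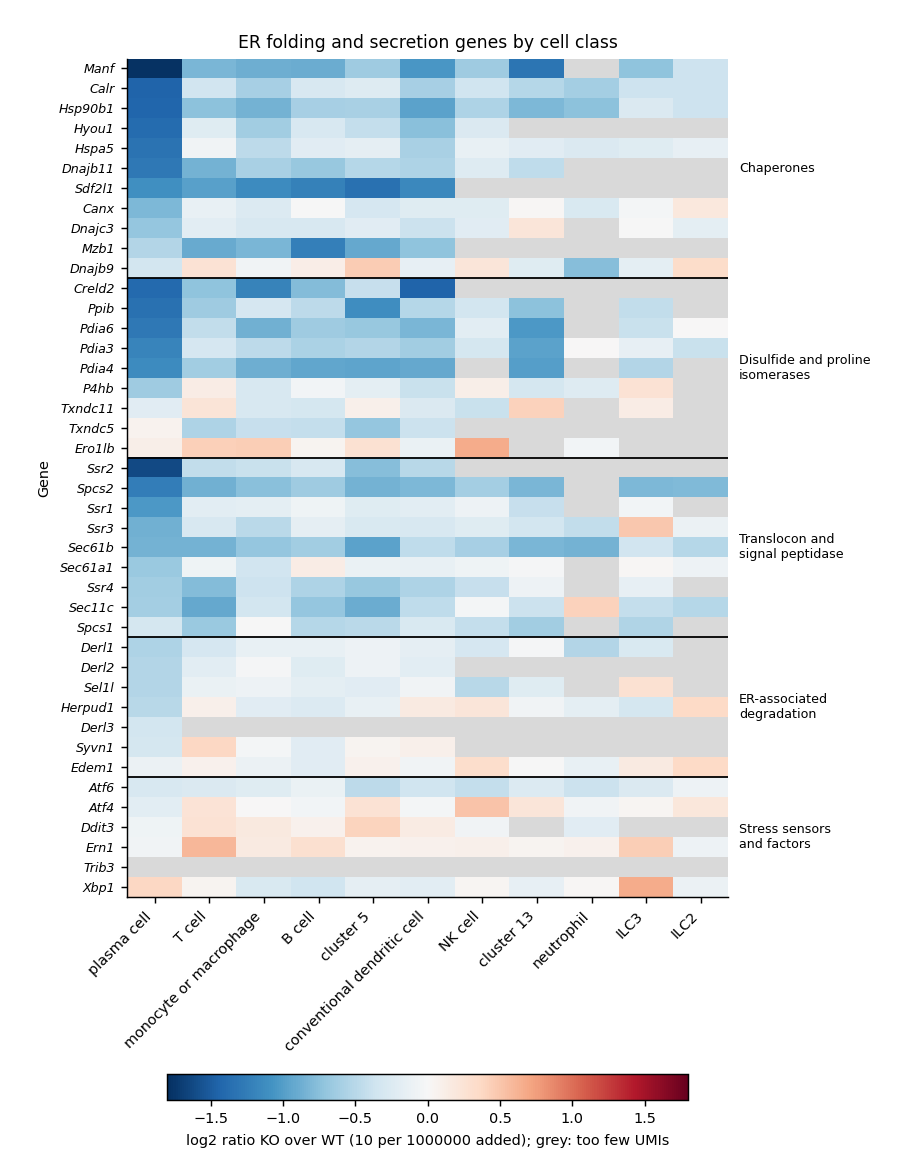
Each cell of the map is the log2 ratio of KO over WT of 1 gene (rows, by branch) in 1 class (columns, plasma cells first), blue for lower and red for higher in KO, grey where the gene had too few UMIs. Plasma cells hold the deepest blue, to -1.77 for Manf, and among the other classes Creld2 reaches -1.44 in dendritic cells.

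Plasma cell transcripts were also counted in the other classes, and droplet data cannot tell free RNA from other sources of them; no profile of empty droplets was analysed here. Jchain stood at 1.046% of its plasma cell level in KO T cells and 1.68% in WT T cells, and at 1.09% in KO and 2.13% in WT B cells. The Jchain share differed between classes and ran the other way in ILC3, with 2.18% in KO and 1.56% in WT, and in cluster 13, with 2.39% in KO and 2.05% in WT. It was about equal in ILC2, with 1.62% in KO and 1.60% in WT. By Igha the share was larger, 1.71% in KO and 3.20% in WT T cells, and was lower in KO in each class. In ILC3 it was then 2.92% in KO and 3.09% in WT, and in cluster 13 2.97% in KO and 3.37% in WT. At the Jchain share, plasma cell RNA would give Mzb1 11.1 UMIs per 1000000 in KO and 25.7 in WT T cells, where 13.5 in KO and 33.8 in WT were measured, so its ratio in T cells is not read as expression. After subtracting the Jchain share from each gene, as an alternative with no such value for all genes, 10 of 40 genes stayed at least 1.5-fold lower in T cells, 9 of 40 in dendritic cells, 9 of 40 in monocytes or macrophages and 5 of 40 in B cells, and the medians were -0.24, -0.30, -0.28 and -0.22. With the Igha share, the counts were 7 in T cells, 9 in dendritic cells, 8 in monocytes or macrophages and 4 in B cells. Over the 8 named classes, Hsp90b1 was lower in 5 as measured, 3 by the Jchain share and 2 by the Igha share. By either share Sec61b was lower in 3 against 5 as measured, Spcs2 in 5 against 7, Manf in 5 against 6 and Sdf2l1 in 4 against 4. Hspa5 in dendritic cells, at the threshold before, was within 1.5-fold after it, at -0.55. Manf then lay at -0.74 in T cells, -0.98 in dendritic cells and -0.78 in B cells.

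A second list of ER pathway genes, kept apart from the 42 and with 71 of its 75 symbols found in the files, had 68 genes that passed in plasma cells, with a median log2 ratio of -0.59 (-0.74 to -0.43). Of these, 35 were at least 1.5-fold lower, against 7.67% of all genes, and 0 higher, against 2.09%. The furthest were Ostc (71.7 UMIs per 1000000 in KO and 232 in WT) and Rpn1 (86.1 in KO and 273 in WT), subunits of the enzyme that attaches N-glycans, and Fkbp11 (41.2 in KO and 115 in WT), an ER prolyl isomerase. Its medians were -0.22 in T cells, -0.15 in B cells and -0.27 in dendritic cells. Heat shock genes had a median of -0.064 in plasma cells, with Hspa1b at 321 in KO and 85.4 in WT and Hspa1a at 158 in KO and 48.4 in WT, while Hspe1, a mitochondrial chaperonin, was at 61.5 in KO and 112 in WT. Of the 12 that passed, 6 lay below 0 and 6 above, with 2 lower and 2 higher by 1.5-fold. Immediate early genes had a median of 0.34 with 3 of 15 higher, against 2.09% of all genes, led by Junb at 527 in KO and 285 in WT. Plasma cell maturation genes had a median of -0.27 with 1 of 11 lower (Cd28, 234 in KO and 444 in WT) and 1 higher (Cxcr4, 95.5 in KO and 58.0 in WT), against 7.67% and 2.09% of all genes.

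Short genes were at least 1.5-fold lower more often than long ones in KO plasma cells, as a description over all genes that passed. Gene spans are from GENCODE on GRCm38, and the genes were cut into 5 groups of equal number by span. Of the shortest group 14.97% were lower, of the longest 4.28%, and their median log2 ratios were -0.21 and -0.11. The 2 shortest groups held 14 and 12 of the 41 genes, of which 6 and 10 were at least 1.5-fold lower. The 41 genes had a median span of 13.0 kb, chaperones 12.9 kb and stress genes 5.52 kb. After taking off the median of each group, the 41 had a median of -0.45, chaperones -1.12, isomerases -0.94, translocon genes -0.66, degradation genes -0.32 and stress genes 0.052. Xbp1 (5.24 kb, 0.37) and Hspa5 (5.58 kb, -1.33) have like spans and unlike ratios.

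**Figure D5:**
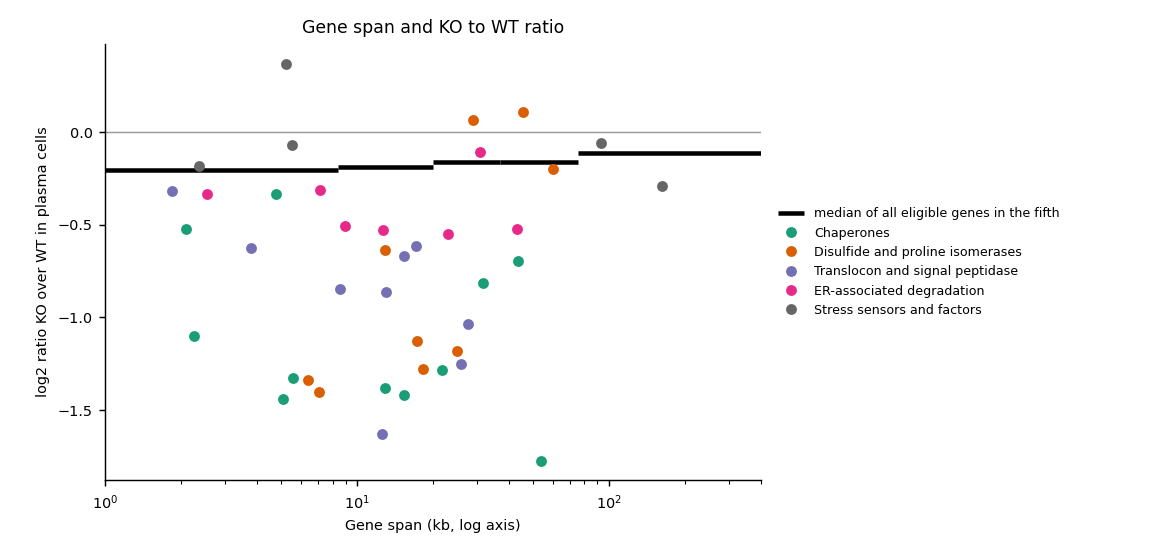
Points give the log2 ratio of KO over WT in plasma cells of the 41 genes against gene span in kb (log axis), coloured by branch, and black lines the median of all genes that passed in each group of span (-0.21 in the shortest, -0.11 in the longest). Most chaperones, isomerases and translocon genes lie below the line of their group.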

How the data were processed

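The deposited matrices hold raw UMI counts per gene and barcode, made by the authors with Cell Ranger 7.0.0; the submitters' processing notes name this tool and the build GRCm38. Neither the annotation release nor whether intronic reads were counted is stated there. Barcodes with fewer than 200 genes, fewer than 500 UMIs (34 in KO, 5 in WT) or more than 20% mitochondrial UMIs (79 in KO, 57 in WT) were left out, as were doublets called by Scrublet in scanpy 1.11.5 (482 in KO, 666 in WT). For clustering, each cell was brought to a total of 10000 and logged, 2000 variable genes without immunoglobulin or T cell receptor segments and without the ER genes gave 30 principal components, and 20 neighbours were clustered by Leiden (leidenalg 0.10.2) at resolution 1. Clusters were named by markers, with at least 3 among 100 leading genes, or for T cells at least 6 each found in 25% of the cells, by a rule chosen once the clusters were known. A class was compared if both libraries held 100 or more of its cells. Intervals are exact Poisson for levels, conditional binomial for folds and Clopper-Pearson for shares. With 1 library per genotype no test was run. A gene was called lower or higher at 1.5-fold. The 42 genes, their branches and the other gene lists were chosen with earlier results of these data known, so none of the lists is independent support. The text names the 42 genes, Dpf2, some marker genes of cell classes, and for other lists up to 3 genes of the largest log2 ratio. Ddit3 has 2 identifiers in the files, of which the second held no UMI. Protein features were not analysed here. Scripts used Python 3.11.15 with numpy 2.4.6 and scipy 1.17.1.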

Additional observations from a re-analysis of the deposited data

How the results depend on the processing

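No paired analysis was possible because each genotype has 1 library and no test was run. The all-gene median scaling, the gene span correction, the plasma subclusters and both subtractions of free plasma cell RNA were chosen after seeing the data. In plasma cells the median over the 41 genes lay between -0.76 and -0.45 under 21 other settings, below 0 in each, and the number at least 1.5-fold lower between 15 and 24, 15 being the count at 2-fold. The number higher was 0 in each. No called value changed sign.

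Medians in plasma cells outside the counting interval of the reported one were as follows, while each of the 23 lower genes left its own interval in 4 to 12 of 21 settings and stayed below 0 in all of them. With 50 per 1000000 added, the medians were -0.95 for chaperones, -1.03 for isomerases, -0.75 for translocon genes and -0.26 for degradation genes. Without immunoglobulin and mitochondrial UMIs in the total they were -0.50 for all genes, -0.98 for isomerases, -0.69 for translocon genes and 0.065 for stress genes. With the all-gene median at 0 they were -0.47 for all genes, -1.12 for chaperones, -0.96 for isomerases, -0.68 for translocon genes and 0.092 for stress genes. With the median of the span group taken off they were -0.45 for all genes, -1.12 for chaperones, -0.94 for isomerases, -0.66 for translocon genes and 0.052 for stress genes. In cells not in cycle they were -0.55 for all genes, -1.10 for chaperones, -0.96 for isomerases and -0.71 for translocon genes. With subclusters weighted alike they were -1.23 for isomerases, -0.76 for translocon genes, -0.56 for degradation genes and 0.049 for stress genes. Within subcluster 5 they were -0.96 for chaperones and -0.74 for translocon genes, and within subcluster 10 -0.95 for isomerases and -0.57 for translocon genes. Thinning gave -1.01 for isomerases, clustering with the 42 genes -0.72 for translocon genes, Xist-only cells -1.41 for chaperones, and Y-linked-only cells -1.27 for isomerases and -0.73 for translocon genes. The causes were not tested, beyond what each setting leaves out. Of the other classes, the 8 named ones were rerun and clusters 5 and 13 were not. Their medians stayed within their counting intervals and below 0 in 18 settings, except that of dendritic cells, at -0.24 after subtracting plasma cell RNA by the Igha share. Of the 23 genes lower in plasma cells, 18 stayed 1.5-fold lower with the all-gene median at 0, with the span group's median taken off, and without immunoglobulin and mitochondrial UMIs; Ssr4, Sec61a1, Dnajc3, P4hb and Sec11c did not. With 1 library per genotype, depth limits only the counting error, and differences between mice, sorts or libraries cannot be told apart from genotype.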
